A study of Mus musculus with 8 samples.

Results

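The genes described here are 10 members of the BCL2 family, the proteins that decide whether a cell's mitochondria stay sealed or release the factors that start apoptosis. They were listed by name and role, with no threshold on a measured value: Bcl2, Bcl2l1 and Mcl1 as pro-survival members, Bcl2l11, Bbc3, Pmaip1, Bid and Bad as BH3-only members, and Bax and Bak1 as effectors. All 10 were found among the 21859 Ensembl mouse gene IDs of the count table through the GENCODE M21 annotation on GRCm38, and 9 passed the filter on low counts, among 10729 genes tested. PER-M60, the line studied, consists of leukaemia cells of the mouse, and its RNA was sequenced in 8 cultures. The groups were 4 cultures in control media and 4 cultures in osteoclast-conditioned media, that is, media taken from osteoclasts, the cells that resorb bone. No genotype, time, dose or further agent is given in the labels for either group. Both groups are the same single line, so they describe PER-M60 cells in culture, and nothing in the labels says that the cultures were started independently, so p-values measure only the spread between these samples.

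Pro-survival members hold the effectors Bax and Bak1 inactive. BH3-only members are sensors of stress that bind the pro-survival members, or the effectors directly, and free the effectors to open the outer mitochondrial membrane. In lymphoid cells the balance between Bcl2, Mcl1 and the BH3-only member Bcl2l11 (BIM) is a known point of control over survival, and BCL2 itself is a drug target in blood cancers.

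Total counts ran from 15391754 to 21637966 per culture, and 13039 to 13300 genes had a count. A floor of 3 counts corresponded to 0.138 to 0.194 CPM (counts scaled to library size) in these libraries, for counting error only. Markers of the B lineage were present in every culture: all 10 listed were detected, and their summed level was 4572 to 4623 CPM in control and 4778 to 4829 CPM in conditioned media. Of 12 osteoclast and macrophage markers, 9 had fewer than 30 counts over the 8 cultures, and 3 of these were at 0 (Dcstamp, Ocstamp and Itgam). The others were detected: Acp5 with 3409 counts in total, Lyz2 with 743 and Cd68 with 303. Itgam lies 99.9% inside another gene model on the same strand, so its 0 says nothing of its expression. The sum of the list was 28.4 to 31.7 CPM in control and 30.8 to 36.2 CPM in conditioned media, most of it Acp5. Of 8 stromal and osteoblast markers, 6 had fewer than 30 counts, and 3 of these were at 0. The others were Alpl with 41800 counts and Runx2 with 1595. Their sum, most of it Alpl, was 291 to 296 CPM in control and 304 to 317 CPM in conditioned media. All 5 T cell markers had fewer than 30 counts. The part of these marker levels in the results below was not tested, and in bulk RNA fewer cells of a type and less RNA per cell cannot be told apart.

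In osteoclast-conditioned media 4 of the 9 tested members rose and none fell. The rise took in both sides of the family: Bcl2 and Mcl1 among 3 pro-survival members, and Bcl2l11 and Bbc3 among 5 BH3-only members. The fold changes were modest, from 1.11 for Mcl1 to 1.49 for Bbc3. Bcl2l1, Pmaip1, Bid, Bad and Bax did not pass the test, and Bak1 had no counts. Across all tested genes 30.5% passed the threshold (edgeR quasi-likelihood test, Benjamini-Hochberg adjusted p under 0.05), 15.7% being higher and 14.8% lower in conditioned media, beside 44.4% of the 9 tested members. With total counts as the only scaling, 40.7% of the calls over all genes were higher, against 51.6% here, and the count of members called higher was 4 under both. The median log2 fold change was 0.12 over the 9 tested members and -0.01 over all tested genes. Groups of cultures did not overlap for the 4 called members, which compares with 28.2% of all tested genes. When tested against a 1.2-fold change instead of no change, Bbc3 was the 1 member called, at an adjusted p of 0.00728, while Bcl2, Mcl1 and Bcl2l11 were not called.

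**Figure D1:**
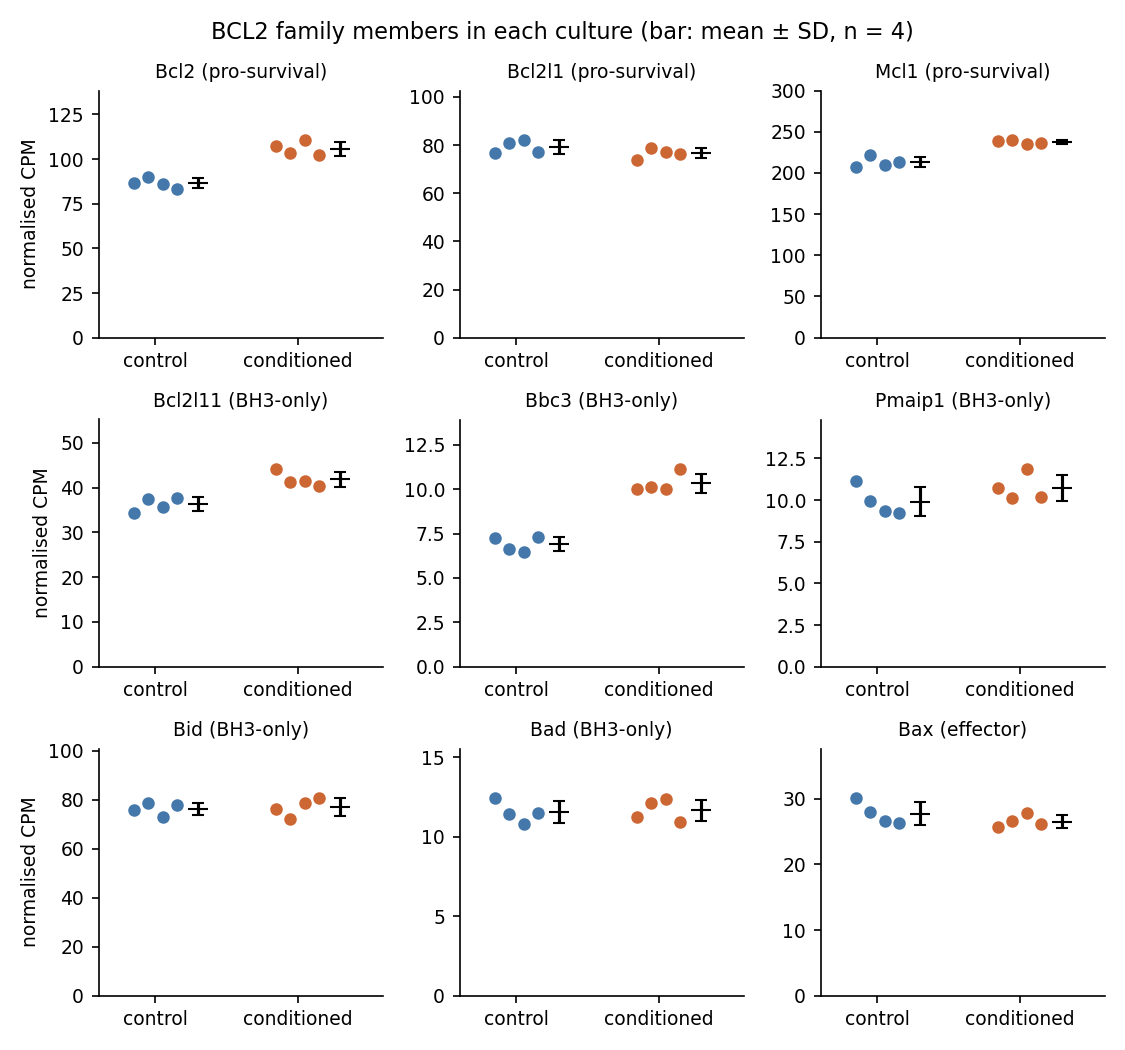
Each panel plots the normalised CPM of 1 member in each culture (points) by medium, with mean and SD (bars, n = 4), on an axis that starts at 0. The conditioned cultures lie above every control culture for Bcl2, Mcl1, Bcl2l11 and Bbc3, and the groups overlap for the other members drawn.

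Among the pro-survival members, Bcl2 (ENSMUSG00000057329, chr1:106538178-106714274, minus strand, GRCm38) encodes the founding member of the family, which sequesters BH3-only proteins at the mitochondrion and endoplasmic reticulum. Its level in control media was 86.5, 89.9, 86.3 and 83.0 normalised CPM in replicates 1 to 4. In conditioned media it was 107, 103, 111 and 102 normalised CPM. Every conditioned culture was above every control culture, with a mean of 105.8 ± 3.90 against 86.4 ± 2.82 CPM (SD, n = 4 each). The log2 fold change was 0.29 (SE 0.035, 95% interval 0.22 to 0.36), or 1.22-fold, with an adjusted p of 1.52e-07. These values rest on 1333 to 2109 counts per culture, and no other listed gene overlaps Bcl2.

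Mcl1 (ENSMUSG00000038612, chr3:95658788-95663176, plus strand) encodes a short-lived pro-survival protein whose level depends on steady synthesis. The control cultures held 208, 222, 210 and 213 normalised CPM of Mcl1. The conditioned cultures held 239, 240, 235 and 236 normalised CPM. All 4 conditioned values exceeded the highest control value, and they were also closer to each other than the control values were, with an SD of 2.33 against 6.26 CPM. The log2 fold change of Mcl1 was 0.16 (SE 0.028, 95% interval 0.10 to 0.21), or 1.11-fold, with an adjusted p of 7.03e-05.

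Bcl2l1 (ENSMUSG00000007659, chr2:152780668-152831728, minus strand) encodes BCL-XL, a longer-lived pro-survival protein. It stood at 76.5, 80.9, 82.2 and 77.3 normalised CPM in control media and at 73.7, 78.6, 77.3 and 76.5 in conditioned media. The groups overlapped, and the log2 fold change of -0.05 (95% interval -0.12 to 0.02, adjusted p 0.312) did not pass the test. The upper end of that interval lies below the lower ends for Bcl2 (0.22) and Mcl1 (0.10), although the difference between genes was not itself tested.

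Of the BH3-only members, Bbc3 (ENSMUSG00000002083, chr7:16308393-16318205, plus strand) encodes PUMA, which binds all the main pro-survival proteins and is a target of p53 and of FOXO factors. Bbc3 had the lowest level per length of the 9 in control media and the largest fold change of the 9. It measured 7.23, 6.64, 6.47 and 7.28 normalised CPM in control media, from 100 to 144 counts. It measured 10.02, 10.12, 9.99 and 11.1 normalised CPM in conditioned media, from 169 to 197 counts. The groups were apart by more than the range within either group, and replicate 4 was the highest conditioned culture. The log2 fold change was 0.58 (SE 0.087, 95% interval 0.40 to 0.75), or 1.49-fold, with an adjusted p of 5.85e-06. Over all genes, 163 that were called changed by at least as much as Bbc3 in either direction.

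Bcl2l11 (ENSMUSG00000027381, chr2:128126038-128162547, plus strand) encodes BIM, the BH3-only protein best known for limiting the survival of lymphocytes deprived of cytokines. Control cultures gave 34.4, 37.5, 35.7 and 37.7 normalised CPM. Conditioned cultures gave 44.2, 41.4, 41.6 and 40.3 normalised CPM. The lowest conditioned culture was above the highest control culture, and the log2 fold change was 0.20 (SE 0.047, 95% interval 0.11 to 0.30), or 1.15-fold, with an adjusted p of 0.00112.

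Pmaip1 (ENSMUSG00000024521, chr18:66458533-66465565, plus strand) encodes NOXA, which binds MCL1 selectively. Its control values were 11.1, 9.96, 9.32 and 9.20 normalised CPM, and its conditioned values were 10.7, 10.1, 11.9 and 10.2. The highest control culture lay inside the conditioned range, and the log2 fold change of 0.12 (SE 0.084, 95% interval -0.05 to 0.29, adjusted p 0.31) did not pass the test. The interval, from 144 to 221 counts per culture, includes the estimates for Mcl1 and Bcl2l11, so a change of that size in Pmaip1 is not excluded.

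Bid (ENSMUSG00000004446, chr6:120891930-120916853, minus strand) links death receptors to mitochondria once cut by caspase-8. It measured 75.8, 78.8, 72.8 and 77.7 normalised CPM in control media and 76.3, 72.0, 78.8 and 80.8 in conditioned media, a log2 fold change of 0.01 (95% interval -0.07 to 0.09, adjusted p 0.855). Bad (ENSMUSG00000024959, chr19:6941861-6951899, plus strand), which growth factor signalling silences by phosphorylation, measured 12.4, 11.4, 10.8 and 11.5 normalised CPM in control media and 11.2, 12.1, 12.4 and 10.9 in conditioned media. Its log2 fold change was 0.01 (95% interval -0.14 to 0.17, adjusted p 0.926). Groups overlapped for both genes, and the sign of each change depended on the scaling: with total counts alone both estimates were -0.01. Exons of Bid are overlapped for 17.7% of their length by Bcl2l13 and those of Bad for 23.0% by Gpr137, each on the opposite strand, and the use of strand in counting is not given in the sources used here.

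The effectors Bax and Bak1 form the pore in the outer mitochondrial membrane. Bax (ENSMUSG00000003873, chr7:45461697-45466898, minus strand) measured 30.1, 28.0, 26.6 and 26.4 normalised CPM in control media and 25.6, 26.6, 27.8 and 26.1 in conditioned media. The groups overlapped and the log2 fold change of -0.07 (95% interval -0.18 to 0.05, adjusted p 0.391) did not pass the test. Gm45808, a gene model on the same strand, covers 52.0% of the Bax exon length, so reads in that stretch could be assigned to either gene or to neither.

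Bak1 (ENSMUSG00000057789, chr17:27019810-27029009, minus strand) had 0 counts in all 8 cultures. Its whole span lies inside Ggnbp1 on the opposite strand. The same placement went with 0 counts elsewhere: of 923 listed genes with their whole span inside other listed genes, 913 (98.9%) had 0 counts in all cultures, against 5337 of 17163 genes (31.1%) that overlap no listed gene. The 0 is therefore a value of the table, and whether the cells transcribe Bak1 cannot be told from it. Bax is thus the 1 tested effector among the 10 members.

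**Figure D2:**
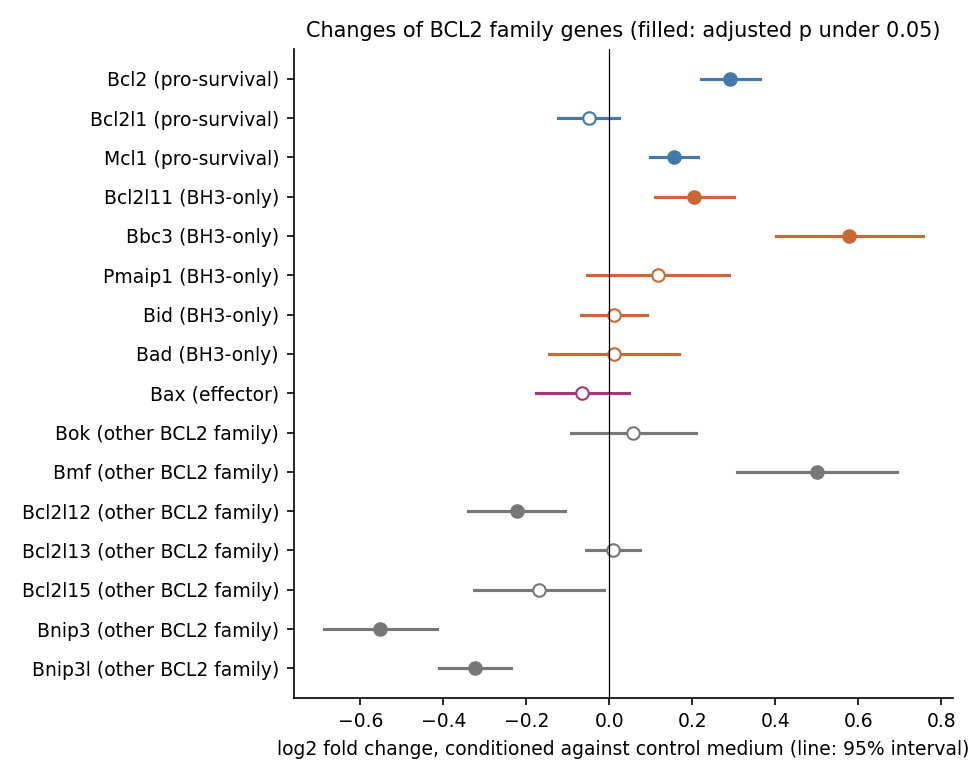
Points are log2 fold changes in conditioned against control media with 95% intervals for the 9 tested members and the 7 tested other family genes, coloured by role and filled where the adjusted p is under 0.05. Filled points to the right are Bcl2, Mcl1, Bcl2l11, Bbc3 and Bmf, and filled points to the left are Bnip3, Bnip3l and Bcl2l12.

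The promoters of the members that rose are shown as a description, and whether any factor acts on them in these cells was not tested. The sequences are from RefSeq on GRCm38.p6 and run 5′ to 3′ on the gene's strand, from 250 bases before to 50 bases after an annotated start. An entry was found for 9 of the 10 members, 15 promoters in all, and none for Pmaip1. Capitals mark a match to 1 of 3 motifs searched on both strands: TGTTTAC, the core bound by FOXO factors, CACGTG, the E-box bound by MYC and related factors, and TGATGNAAN, the core of the amino acid response element bound by ATF4 and DDIT3. Positions count from the annotated start as 0. For Bcl2l11, with 2 promoters in the table, and Bbc3, with 3, those with a match are given, so they were picked for holding one.
Bcl2, chr1:106714241-106714540, minus strand: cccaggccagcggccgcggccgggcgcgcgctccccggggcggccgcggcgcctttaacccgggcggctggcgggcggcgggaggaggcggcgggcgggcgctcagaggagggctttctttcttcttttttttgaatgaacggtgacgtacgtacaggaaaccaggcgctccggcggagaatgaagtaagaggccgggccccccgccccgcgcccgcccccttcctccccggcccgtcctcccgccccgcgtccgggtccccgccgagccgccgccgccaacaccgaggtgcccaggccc
Mcl1, chr3:95658471-95658770, plus strand: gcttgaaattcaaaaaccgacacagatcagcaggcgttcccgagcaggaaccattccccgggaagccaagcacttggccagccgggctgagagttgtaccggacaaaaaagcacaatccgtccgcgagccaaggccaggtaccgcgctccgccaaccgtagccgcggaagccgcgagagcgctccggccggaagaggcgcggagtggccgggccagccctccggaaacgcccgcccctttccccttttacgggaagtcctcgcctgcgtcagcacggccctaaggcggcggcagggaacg
Bcl2l11, chr2:128125788-128126087, plus strand: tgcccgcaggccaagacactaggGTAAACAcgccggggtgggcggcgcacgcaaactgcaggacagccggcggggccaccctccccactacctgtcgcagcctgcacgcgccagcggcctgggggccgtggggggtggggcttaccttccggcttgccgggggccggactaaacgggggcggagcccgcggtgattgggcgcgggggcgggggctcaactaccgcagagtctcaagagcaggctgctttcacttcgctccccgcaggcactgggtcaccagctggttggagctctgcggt
Bbc3, chr7:16310011-16310310, plus strand: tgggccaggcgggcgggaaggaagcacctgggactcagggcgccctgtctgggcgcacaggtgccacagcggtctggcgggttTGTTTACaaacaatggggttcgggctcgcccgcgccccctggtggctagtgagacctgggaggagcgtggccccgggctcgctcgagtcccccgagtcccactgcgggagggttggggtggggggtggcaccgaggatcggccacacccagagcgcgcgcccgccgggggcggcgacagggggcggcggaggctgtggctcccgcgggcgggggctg
Bbc3, chr7:16310181-16310480, plus strand: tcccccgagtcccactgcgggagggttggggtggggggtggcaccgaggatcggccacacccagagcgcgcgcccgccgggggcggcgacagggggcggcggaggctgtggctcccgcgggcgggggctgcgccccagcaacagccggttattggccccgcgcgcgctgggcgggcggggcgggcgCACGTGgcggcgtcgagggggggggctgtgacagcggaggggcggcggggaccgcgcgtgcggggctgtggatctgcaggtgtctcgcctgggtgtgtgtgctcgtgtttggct

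The Bcl2l11 promoter held the FOXO core on its reverse strand, read as GTAAACA, at -227 to -221. Of the 3 Bbc3 promoters, 1 held the FOXO core at -167 to -161, 1 held an E-box at -64 to -59 and 1, not shown, held no match, as did the Bcl2l11 promoter not shown. Over the 15 member promoters, 2 held the FOXO core, 2 the E-box and 0 the amino acid response core. The 15 come from 9 genes, and the 2 Bbc3 promoters shown overlap each other, so the 15 are not independent. The FOXO core was present in 3.65% of the 32851 promoters of the table, the E-box in 7.15% and the amino acid response core in 3.95%. The Bcl2 and Mcl1 promoters held none of the 3 motifs in these windows. Among members that did not pass the test, a Bax promoter held the E-box at -9 to -4 and at 35 to 40. The Bcl2 promoter was 76% G and C, the 2 Bbc3 promoters shown 74.7% and 78%, the Bcl2l11 promoter 71% and the Mcl1 promoter 65.7%, against a median of 52.7% over all promoters. These are matches of letters in a fixed window and no binding was measured.

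Levels were compared between members only after division by the length of each gene's exons, as normalised CPM per kb, and are approximate because the authors' counting settings are not given in the sources used here. In control media Mcl1 was the highest at 62.4 ± 1.83 CPM per kb (SD, n = 4), with a range of 60.8 to 64.9. Bid (21.5 ± 0.737), Bax (17.6 ± 1.1) and Bcl2l1 (17.3 ± 0.597 CPM per kb) followed. The Bid range of 20.5 to 22.2 lay above the others, while Bax (16.7 to 19.1) and Bcl2l1 (16.7 to 17.9) did not differ beyond their spread. Bcl2 stood below them at 9.44 ± 0.308 CPM per kb. The lowest group was Bcl2l11 (4.52 ± 0.195), Bad (4.52 ± 0.262), Pmaip1 (3.63 ± 0.324) and Bbc3 (3.25 ± 0.192 CPM per kb). Within it the ranges of Bcl2l11 (4.29 to 4.70) and Bad (4.23 to 4.86) overlapped, as did those of Pmaip1 (3.37 to 4.08) and Bbc3 (3.05 to 3.43).

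In conditioned media Mcl1 remained the highest at 69.5 ± 0.682 CPM per kb. Bid was at 21.7 ± 1.06, Bax at 16.8 ± 0.590, Bcl2l1 at 16.7 ± 0.453 and Bcl2 at 11.6 ± 0.425 CPM per kb. Bbc3, last in control media, was at 4.86 ± 0.261 CPM per kb with a range of 4.70 to 5.25, which overlapped Bcl2l11 (5.02 to 5.51) and Bad (4.27 to 4.83) and lay above Pmaip1 (3.70 to 4.34). The place of Bax depends on the length used: over the exon length outside other genes, its control level was 36.7 CPM per kb, above Bid at 26.1.

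**Figure D3:**
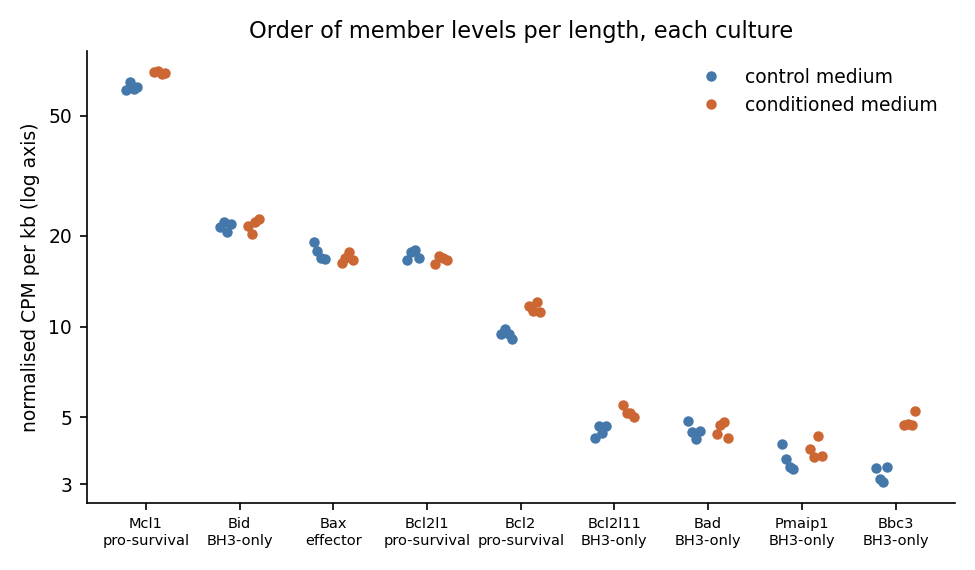
Normalised CPM per kb of exon length (log axis) in each culture, by member and medium. Mcl1 lies above all other members in every culture, and the points of Bbc3 overlap those of Pmaip1 in control media and lie above them in conditioned media.

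The comparison of pro-survival with pro-death members gave 2 of 3 tested pro-survival members higher, with a median log2 fold change of 0.16, and 2 of 6 tested pro-death members higher, with a median of 0.06. The share called was 33.3% of the pro-death members, near the 30.5% of all tested genes, and with so few genes a side neither count nor median is read as a result. Ratios within a culture were taken for pairs of proteins known to bind or oppose each other, as log2 of 1 level per length over the other.

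Bcl2 over Bax was -1.02, -0.85, -0.84 and -0.88 in control media and -0.47, -0.58, -0.55 and -0.57 in conditioned media. The groups did not overlap, and the difference in means was 0.36 on the log2 scale. The level of this ratio, unlike the difference between media, depends on the Bax length used. Bax in control media was at 17.6 CPM per kb over all its exons and at 36.7 over those outside other genes. Bcl2l1 over Bcl2l11 was 1.96, 1.92, 2.01 and 1.84 in control media and 1.55, 1.73, 1.70 and 1.73 in conditioned media. Here the conditioned cultures were lower, without overlap, by a difference of -0.26. The differences of these pairs had opposite signs, in favour of the survival gene for Bcl2 over Bax and of the death gene for Bcl2l1 over Bcl2l11.

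Bcl2 over Bcl2l11, where both genes rose, was 1.14, 1.07, 1.09 and 0.95 in control media and 1.09, 1.13, 1.22 and 1.15 in conditioned media. The groups overlapped, and the means differed by 0.09. Mcl1 over Pmaip1 was 3.90, 4.15, 4.17 and 4.21 in control media and 4.15, 4.25, 3.98 and 4.21 in conditioned media, with overlapping groups and a difference of 0.04. Mcl1 over Bak1 was not computed because Bak1 was listed at 0. No test of the difference between media was run on these ratios, since their genes were chosen with results of these data known.

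**Figure D4:**
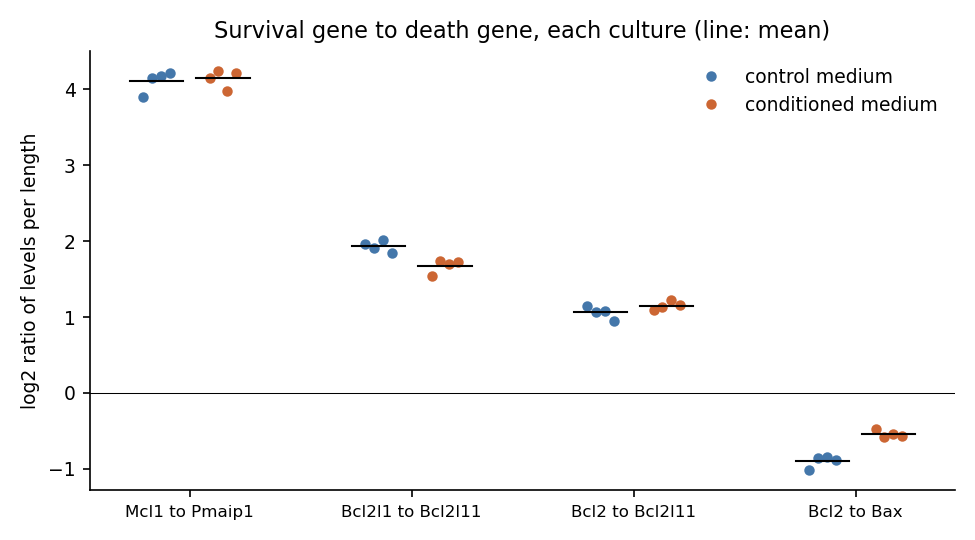
Log2 ratios of levels per length in each culture (points) with group means (lines) for 4 pairs of a survival and a death gene. The groups separate for Bcl2l1 over Bcl2l11, lower in conditioned media, and for Bcl2 over Bax, higher in conditioned media. The level of Bcl2 over Bax depends on the Bax exon length used.

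Of 15 other BCL2 family genes, 7 passed the filter, and 1 of these rose and 3 fell, with a median log2 fold change of -0.17. That is 57.1% of the 7 called, against 30.5% of all tested genes. Bmf, a BH3-only gene whose protein responds to loss of attachment and to energy stress, rose from 6.05 ± 0.375 to 8.56 ± 0.579 CPM (log2 fold change 0.50, SE 0.094, adjusted p 0.000128). Its control cultures spanned 5.64 to 6.54 CPM and its conditioned cultures 8.09 to 9.39 CPM, so Bmf separated the media in the same direction as Bbc3 and Bcl2l11. The genes that fell were Bnip3 and Bnip3l, which are hypoxia-responsive receptors for the removal of mitochondria, and Bcl2l12. Bnip3 went from 112 ± 10.7 to 76.6 ± 3.01 CPM (log2 fold change -0.55, adjusted p 3.71e-05). Bnip3l went from 119 ± 9.13 to 95.5 ± 1.62 CPM (-0.32, adjusted p 2.91e-06), and Bcl2l12 from 26.5 ± 1.63 to 22.6 ± 0.512 CPM (-0.22, adjusted p 0.00295). Bok, Bcl2l13 and Bcl2l15 did not pass the test, though Bcl2l15 (-0.17, adjusted p 0.097) was called lower without control replicate 2 (adjusted p 0.00569). The other 8 genes, among them the pro-survival genes Bcl2l2, Bcl2a1a, Bcl2a1b and Bcl2a1d, had at most 4 counts over the 8 cultures. Bcl2l2 and Bcl2a1b each lie almost wholly inside another gene model on the same strand (98.7% and 98.0% of their span).

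Downstream of the family, 4 of 10 genes of mitochondrial release and the apoptosome were called lower and 0 higher, beside 14.8% lower and 15.7% higher over all tested genes, with a median of -0.06. Vdac3, a channel of the outer mitochondrial membrane named after its value was seen, was not called (0.11, adjusted p 0.0805). It was called higher in 5 of 21 alternatives, among them without control replicate 2 (adjusted p 0.00474) and without conditioned replicate 4 (0.0118). Aifm1, a mitochondrial flavoprotein that can move to the nucleus in cell death, fell from 75.5 ± 2.69 to 64.4 ± 1.63 CPM (log2 fold change -0.23, adjusted p 1.96e-05). Htra2, a mitochondrial protease (-0.22, adjusted p 0.000143), and Endog, a mitochondrial nuclease (-0.29, adjusted p 0.00176), also fell, though 43.7% and 35.7% of their exon lengths lie under other genes. Mtch2, a receptor for BID at the outer membrane, changed by -0.11 (adjusted p 0.0369), with overlapping groups and a call that held in 12 of 21 alternative settings. It was lost without control replicate 2 or 4 or conditioned replicate 1, 2 or 3, at adjusted p values from 0.0734 to 0.185. The core of the apoptosome did not pass the test: Apaf1 had a log2 fold change of 0.01 (adjusted p 0.879) and Cycs, cytochrome c, one of -0.07 (adjusted p 0.171).

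Caspases are the proteases that carry out apoptosis or, for Casp1, inflammatory cell death. Casp6, an executioner, fell from 9.08 ± 0.459 to 6.31 ± 0.346 CPM (log2 fold change -0.53, adjusted p 3.85e-05). Casp1 rose from 2.50 ± 0.374 to 3.64 ± 0.547 CPM (0.52, adjusted p 0.00866), with overlapping groups and at a low level. The initiators Casp9 (-0.05, adjusted p 0.716) and Casp8 (-0.05, adjusted p 0.252) did not pass. Casp2, also an initiator and named after its value was seen, was not called (0.10, adjusted p 0.162), but was called higher without control replicate 2 (0.16, adjusted p 0.000202).

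Among the 6 inhibitor of apoptosis proteins 2 rose and 2 fell, or 66.7% called, against 30.5% of all tested genes. Birc6, a large ubiquitin ligase that restrains caspases, rose from 276 ± 21.5 to 353 ± 20.95 CPM (log2 fold change 0.35, adjusted p 0.00377). Birc5, survivin, which acts mainly in cell division, fell from 118 ± 4.15 to 103 ± 2.66 CPM (-0.19, adjusted p 4.01e-05), and Birc2 fell from 33.7 ± 1.89 to 29.0 ± 1.92 CPM (-0.21, adjusted p 0.00332). Xiap, the direct inhibitor of caspases, changed by 0.09 (adjusted p 0.0348), a call that held in 12 of 21 alternatives and was lost without replicate 1 or 3 of either medium (adjusted p 0.0685 to 0.125). In the death receptor pathway 1 of 8 tested genes passed, Ripk1 at 0.13 (adjusted p 0.0459), and that call held in 6 of 21 alternatives. It was lost without any 1 culture other than control replicate 3 (adjusted p 0.0541 to 0.151). Cflar, which encodes an inhibitor of caspase-8 activation and was named after its value was seen, was not called (0.10, adjusted p 0.0574). It was called without control replicate 3 or 4 or conditioned replicate 1 (adjusted p 0.0377 to 0.046).

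The list of factors known to regulate BCL2 family genes or proteins had 13 of 16 tested genes called, 10 higher and 3 lower. Its median was 0.20, and 30.5% of all tested genes were called. The list also holds Chac1, among the 10 higher, which is a target of a stress pathway and not such a factor. The 3 lower genes, Myc, Mapk8 and Ywhaz, are named outside the rule after their values were seen. All 3 calls were lost without control replicate 1 (adjusted p 0.0537, 0.0605 and 0.0674) and without conditioned replicate 3 (0.0501, 0.157 and 0.052). Some were also lost without control replicate 4 (Myc 0.06, Mapk8 0.186), conditioned replicate 1 (Mapk8 0.0721), conditioned replicate 2 (Myc 0.0585, Mapk8 0.066) or conditioned replicate 4 (Ywhaz 0.0528). The transcription factor Atf5 rose from 31.5 ± 2.09 to 63.9 ± 3.57 CPM (log2 fold change 1.02, adjusted p 7.14e-16). Ddit3 (CHOP), known as an activator of Bcl2l11 and Bbc3 under stress of the endoplasmic reticulum, rose from 13.2 ± 0.310 to 20.6 ± 0.647 CPM (0.64, adjusted p 3.45e-09). Chac1, a glutathione-degrading target of the same stress pathway, rose from 7.32 ± 0.602 to 13.6 ± 0.769 CPM (0.89, adjusted p 1.25e-09). The estimates for these 3 were above that of Bbc3, though the 95% intervals of Ddit3 and Chac1 overlapped its interval. Ddit3 shares its symbol with another gene ID, and other genes overlap 10.1% of its exon length.

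Foxo1, a factor known to act on Bcl2l11 and Bbc3, rose from 150 ± 1.74 to 198 ± 4.12 CPM (log2 fold change 0.40, adjusted p 3.26e-12), with no overlap between 148 to 152 CPM in control and 194 to 204 CPM in conditioned media. Foxo3, named after its value was seen, rose by 0.18 (adjusted p 0.000196). Trp53, also named after its value was seen, encodes p53, which acts on Bbc3, Pmaip1 and Bax. Its log2 fold change of 0.02 (adjusted p 0.678) did not pass. Transcript levels of p53 are no measure of its activity, which is set mainly on the protein. Over all 54 tested genes of these lists that are not among the 10 members, 53.7% were called, 15 higher and 14 lower, against 30.5% of all tested genes. All lists were chosen with results of these data known, so their counts are descriptions.

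**Figure D5:**
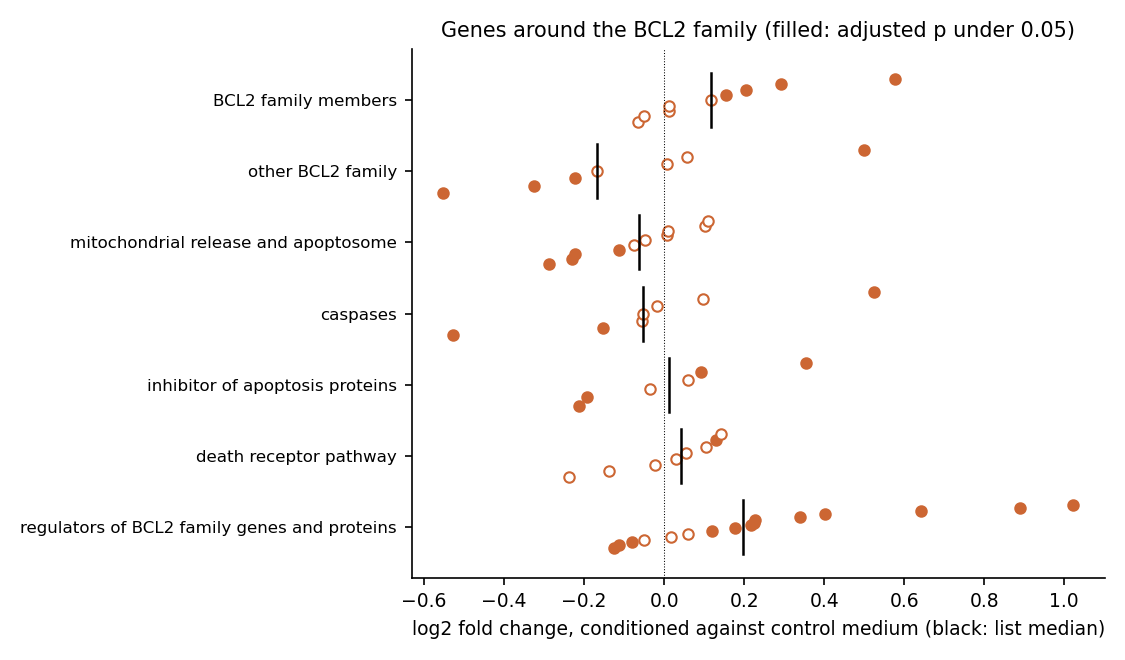
Log2 fold changes of every tested gene by list, filled where the adjusted p is under 0.05, with list medians as black bars. The list of regulators, which also holds Chac1, has the highest median (0.20) and the other BCL2 family genes the lowest (-0.17).

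Among tested genes averaging 5 CPM or more, those whose log2 CPM followed that of Bcl2 most closely over the 8 cultures were Irf2bpl (Pearson r 0.996), Tap1 (0.996) and Gaa (0.994). Their log2 fold changes were 0.16, 0.21 and 0.26. The 8 points share the split between the media, so any gene that separates the media cleanly correlates with Bcl2, and no p is given.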

How the data were processed

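RNeasy Plus Mini and SureSelect HS2 kits served for RNA and libraries, per the labels' protocols. The deposited table gives unnormalised read counts for each Ensembl ID in 8 cultures. STAR 2.7.5a, featureCounts 2.0.1 and mm10 are named, per the submitters' processing notes, without role or settings; the annotation, strandedness and handling of molecular barcodes are not given in the sources used here. Columns were matched by sample number, and 0 were left unused.

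Of 21859 gene IDs, 21817 matched GENCODE M21. The test was that of edgeR 4.0.16 (R 4.3.3): filterByExpr, TMM scaling, robust glmQLFit and glmQLFTest with medium as the term, Benjamini-Hochberg adjustment over 10729 genes, threshold 0.05. Called means past that threshold. The common biological coefficient of variation was 0.0304. Normalised CPM are TMM-scaled. Libraries ranged from 15391754 to 21637966 counts, and no 2 agreed within sampling noise. Python 3.11.15, pandas 2.3.3 and matplotlib 3.10.9 served for annotation, motifs and figures.

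The members and lists were chosen with earlier results of these data known. All members were named. A result for 1 listed gene is not reported here. Of each list, called genes up to 4 by smallest p were named, and the 3 genes with the highest Pearson r to the called member with the smallest p (log2 CPM, prior count 2, mean at least 5 CPM). Alternatives (21) covered scaling, filter, test (DESeq2 1.42.0, limma-voom with limma 3.58.1), robust estimation, replicate block, thinning, thresholds, each culture left out, and, chosen after seeing the data, an offset on transcript length and GC content (loess span 0.5).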

Additional observations from a re-analysis of the deposited data

Results flagged for a closer look

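In a group of 4 cultures, 1 value was marked where its gap to the nearest other value, divided by the range of the group, exceeded Dixon's critical value for 4 samples. This marked 2 of 26 groups tested, and chance marks about 1 in 20.

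Bbc3 was highest in conditioned replicate 4, at 11.14 normalised CPM, while the other 3 conditioned cultures lay between 9.986 and 10.12 CPM (ratio 0.885). Without that culture Bbc3 was still called.

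The log2 ratio of Bcl2l1 to Bcl2l11 was lowest in conditioned replicate 1, at 1.546, while the others lay between 1.702 and 1.734 (ratio 0.83). In that culture Bcl2l1 was at its lowest, 73.7 CPM, and Bcl2l11 at its highest, 44.2 CPM.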

How the results depend on the processing

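The number of members called was 4, all higher, in every alternative except the test against a 1.2-fold change, where it was 1 (1 higher). There Bcl2, Mcl1 and Bcl2l11 kept their direction and were not called. Over all genes, 3273 calls became 2147 at an adjusted p under 0.01 and 227 against a 1.2-fold change. Leaving out each culture in turn gave 2635 to 3578 called genes and 4 called members each time.

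Across the 21 alternatives the log2 fold change was 0.26 to 0.31 for Bcl2, 0.13 to 0.18 for Mcl1, 0.18 to 0.23 for Bcl2l11 and 0.54 to 0.61 for Bbc3. With the offset on transcript length and GC content, Bcl2 (0.2636) and Bcl2l11 (0.1814) were below their main estimates. Mcl1 (0.1609) and Bbc3 (0.5837) were above theirs under that offset. Of the members that were not called, Bid and Bad changed sign. With total counts as the only scaling Bid was -0.0102 and Bad -0.01, and with thinned counts Bad was -0.0043. With each culture left out, Bid ranged from -0.0103 to 0.0428 and Bad from -0.0188 to 0.0504. The other uncalled members kept their sign and were not called with any 1 culture left out, but their estimates ranged from -0.09 to -0.02 (without control replicate 1) for Bax, from 0.07 (without conditioned replicate 3) to 0.18 (without control replicate 1) for Pmaip1 and from -0.06 to -0.03 (without conditioned replicate 1) for Bcl2l1. The number of death receptor genes called ranged from 0 to 2.

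The replicate numbers in the labels are shared by both media, but same-numbered cultures did not deviate together (correlations -0.029, 0.086, -0.051 and 0.143), and only replicate 4 correlated best with its own number. With a replicate block 3446 genes were called, 3236 of them shared with the fit without it in the same direction, and 4 members. Under the replicate block Bcl2l15 (adjusted p 0.04) and Cflar (0.0484) were called as well. With counts thinned to the smallest library 4 members were called. Bak1, at 0 counts, could not be assessed.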
